A study of Homo sapiens with 72 samples.

Results

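Messenger RNA decay was followed over 3 h in A375 cells, an established human melanoma line, after transcription had been stopped with triptolide. The 6 libraries that measure it, of 72 in the whole series, are the control siRNA cells (siGL2) of the arm treated with triptolide alone (T), with 3 replicates harvested at 0 h and 3 at 3 h. The libraries were picked by their labels, not by any measured value. All 6 cultures had been transfected for 42 h with an siRNA against GL2, a luciferase sequence that human cells lack, and then received 25 µM triptolide. The 0 h cultures were harvested straight after the addition. Cytoplasmic RNA was taken and sequenced from the 3′ end of polyadenylated RNA (QuantSeq), so each value is a read count per gene. Control medium cells (pQ, 18 h in fresh medium with glutamine, no siRNA) and siGL2 cells that received triptolide with 100 µg/ml cycloheximide (TCHX) were used for comparison, at the same times and with the same number of replicates. The A375 cells are 1 line, and the labels do not say whether the replicates came from separate transfections, so the p-values measure only the spread between these libraries.

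Once transcription is blocked, no new mRNA replaces what the cell degrades, and the amount left at a later time reflects how long each mRNA lives. Short-lived mRNAs typically encode proteins that must appear and vanish quickly, such as immediate early transcription factors and the inhibitors that switch signalling off. Many carry AU-rich elements in the 3′ untranslated region, to which proteins bind that recruit the deadenylation machinery. Long-lived mRNAs typically encode housekeeping machines such as the ribosome, the respiratory chain and glycolysis. A375 cells carry an activating BRAF mutation, which keeps the ERK pathway switched on.

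The scale of every value below is relative. A library total is set by the sequencing, not by the RNA left in the cell, so a loss shared by all mRNAs cannot be seen. Libraries were scaled so that the typical mRNA did not change (TMM). "Faster" therefore means lost faster than the typical mRNA and "slower" means lost more slowly, and CPM (counts scaled to the same library total) can go up for an mRNA that is only lost less. On the study's own kind of scale, set by 198 stable genes, the median of all genes was -0.49 on the log2 scale over 3 h, and the median shift of a log2 change against those given here was also -0.49, with a smaller shift for RNAs at or near 0 counts. These genes had a CPM at 3 or 5 h of at least 1.1 times that at 0 h in every replicate of both arms of siGL2 and siCTU2 cells (an siRNA against CTU2), so they were picked in part on the libraries described here. A median of -0.49 corresponds to an apparent half-life of 6.16 h.

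Libraries held 7650793 to 9634371 counts for 16039 to 16331 genes. Of 12095 genes tested, 2038 were lost faster (16.8%) and 1358 more slowly (11.2%) than the typical mRNA at an adjusted p under 0.05 (edgeR quasi-likelihood test with the replicate number as a block). Scaling to library totals gave 2427 faster and 614 slower, and scaling to the stable genes 8196 and 113. The change was lopsided. The log2 change lay between -1.52 and 0.52 for the middle of the genes (5th to 95th percentile) and reached -3.06 at the 1st percentile. Among the faster mRNAs, 928 had a log2 change under -1, 366 were under -2 and 56 were under -4. The slower mRNAs differed by little, with a median log2 change of 0.29, against -0.92 for the faster ones. All 12 melanoma lineage markers had counts in at least 1 of the 6 libraries, and 9 of them had enough to be tested. The 12 summed to 1654 to 1912 CPM at 0 h and 1423 to 1715 CPM at 3 h. KRT5, KRT1, DSG3 and TP63 (4 of 6 keratinocyte markers), COL1A2 and COL3A1 (2 of 6 fibroblast markers) and CD3E (1 of 6 leukocyte markers) had 0 counts in the 6 libraries. The others had counts, and at 0 h the lists summed to 186 to 215 CPM for keratinocyte, 9.12 to 9.75 CPM for fibroblast and 6.05 to 11.7 CPM for leukocyte markers, against 164 to 219.5, 6.73 to 9.34 and 8.08 to 14.01 CPM at 3 h. Their part in the results was not tested.

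Reference mRNAs behaved in 2 groups. JUN, a subunit of the AP-1 transcription factor, had 21.4, 32.9 and 20.99 CPM in the 3 replicates at 0 h and 0.934, 1.80 and 0.915 CPM at 3 h. The groups were far apart, and the log2 change was -4.28 (SE 0.26, edgeR adjusted p = 2.47e-13). MCL1, an anti-apoptotic BCL2 relative, went from 186, 200 and 176 CPM to 19.2, 34.3 and 16.9 CPM, a log2 change of -2.95 (SE 0.12, edgeR adjusted p = 6.01e-17). All 6 mRNAs listed as short-lived (JUN, FOS, MYC, IER2, MCL1 and ATF3) were lost faster, with log2 changes from -4.60 for MYC to -2.18 for ATF3. With the stable-gene scale and simple exponential loss, the apparent half-lives were 0.629 h for JUN (95% interval 0.568 to 0.706 h), 0.774 h for IER2 (0.725 to 0.831 h) and 0.872 h for MCL1 (0.812 to 0.942 h). These intervals do not carry the error of the scale itself.

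On the other side, GAPDH, a glycolytic enzyme and one of the most abundant mRNAs, had 9333, 9109 and 9556 CPM at 0 h and 10500, 10520 and 11570 CPM at 3 h. Its log2 change was 0.30 (SE 0.04, edgeR adjusted p = 1.83e-07), and -0.19 on the stable-gene scale. Of the 5 reference long-lived mRNAs that could be tested, GAPDH, ACTB and VIM were slower, while EEF1A1 (log2 change 0.07) and TUBA1B (0.05) did not pass, and all 5 were negative on the stable-gene scale. The log2 change of ACTB did not pass on library totals (edgeR adjusted p = 0.253), without the block (0.224) or without replicate 1 (0.0789) or 2 (0.195), and the log2 change of VIM did not pass on library totals (0.116), without the block (0.138) or without replicate 1 (0.151). LDHA, the remaining one, was listed with 1 count over the 6 libraries. The annotation holds an extra copy of LDHA, and the reads of such genes cannot be assigned with certainty.

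AU-rich elements are the best known instability signal of such mRNAs. The sites below are the first full nonamer in the 3′ untranslated region of the 7 most lost named mRNAs that hold one. They are listed from the most lost (CSRNP1, log2 change -4.60) to the least lost (PHLDA1, -2.22). Each is 29 bases long, 5′ to 3′ on the strand of the mRNA, from the GRCh38 genome, with the nonamer TTATTTATT in capitals.
CSRNP1, chr3:39142885-39142913, minus strand: ttctctggatTTATTTATTtgttttaact
IER5, chr1:181092443-181092471, plus strand: gtgtcttcctTTATTTATTtatttattta
DDIT3, chr12:57516616-57516644, minus strand: gattgtacatTTATTTATTactgtcccta
FOS, chr14:75282060-75282088, plus strand: tgtttttaatTTATTTATTaagatggatt
PLK2, chr5:58454066-58454094, minus strand: aataaactttTTATTTATTacagcccaaa
ZFP36, chr19:39409196-39409224, plus strand: tatgacgactTTATTTATTctaatatgat
PHLDA1, chr12:76029787-76029815, minus strand: tgatttatgaTTATTTATTagtttttttt
In each site the pentamer ATTTA sits inside the nonamer. The IER5 region holds 3 nonamers and 10 pentamers, and the other 6 hold 1 nonamer each. The 3 nonamers of IER5 overlap one another within the site shown, and only the first is in capitals. Other faster mRNAs named in the results hold the nonamer but were lost less, and their sites are not shown. Among them are ZFP36L1 (log2 change -1.47), DUSP4 (-1.17), ZNF24 (-0.97), MITF (-0.77), MAFF (-0.63), SRF (-0.33) and GDF15 (-0.22).

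Most of the fastest mRNAs lacked the nonamer. Of the 12 fastest RNAs named below, 10 had a coding sequence in GENCODE release 44, and 1 of these (CSRNP1) held the nonamer while 9 held ATTTA. DUSP6, which had the lowest adjusted p of the 12, held 1 ATTTA in 2019 bases.

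The 12 fastest RNAs by size of change, among those with a mean of at least 50 counts at 0 h, were EBLN2, BIN3-IT1, DUSP6, MIR222HG, RPUSD2, ZKSCAN4, DDIT4, NFKBIA, ID1, MYC, CSRNP1 and TRIB1. DUSP6, the phosphatase that inactivates ERK in the cytoplasm, had 255, 269 and 266 CPM at 0 h and 5.19, 5.61 and 3.27 CPM at 3 h. Only 1.78% of its CPM was left, and the log2 change was -5.71 (SE 0.12, edgeR adjusted p = 2.03e-23). NFKBIA, the inhibitor that holds NF-kB in the cytoplasm, went from 52.7, 53.9 and 51.2 CPM to 1.97, 2.69 and 1.31 CPM, with 3.79% left. ID1, an inhibitor of basic helix-loop-helix factors, went from 121, 118 and 116 CPM to 5.61, 4.49 and 3.40 CPM, with 3.80% left. In these 3 mRNAs the replicates of a time were close and the times did not overlap.

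DDIT4, an inhibitor of mTORC1 signalling, varied more at 0 h, with 33.5, 41.9 and 59.6 CPM, and stood at 1.77, 1.35 and 1.44 CPM at 3 h. TRIB1, a pseudokinase that steers proteins to degradation, went from 50.9, 57.7 and 46.8 CPM to 1.77, 1.46 and 3.40 CPM. MYC had 133, 106 and 77 counts at 0 h and 8, 5 and 0 counts at 3 h, so its log2 change of -4.60 (SE 0.42) rests on few reads. The same holds for EBLN2 (68, 88 and 50 counts against 0, 0 and 1), BIN3-IT1 (63, 39 and 71 against 0, 1 and 0) and ZKSCAN4, a zinc finger gene (55, 61 and 60 against 0, 3 and 3). MIR222HG, the host transcript of the microRNAs miR-221 and miR-222, lies on the X chromosome (45745210 to 45770274, minus strand, GRCh38) and went from 120, 178 and 156 counts to 2, 8 and 4. RPUSD2, a pseudouridine synthase-like gene, and CSRNP1, a nuclear protein induced by AXIN1, were left at 3.38% and 3.69% of their CPM. All 12 kept their direction and their adjusted p under 0.05 under each alternative tried.

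**Figure D1:**
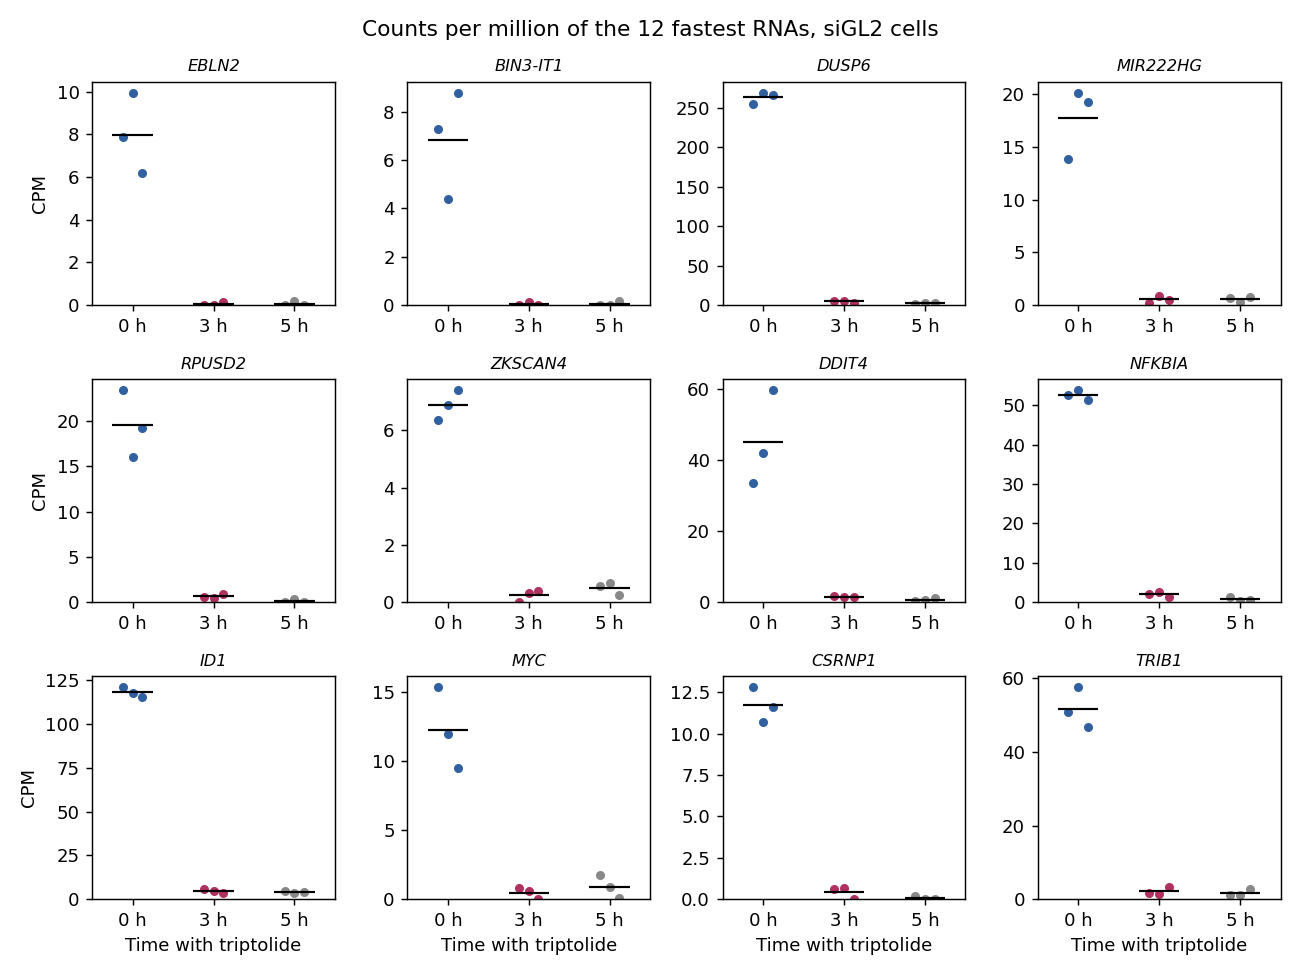
CPM (y axis, linear, from 0) of the 12 fastest RNAs in siGL2 cells at 0, 3 and 5 h of triptolide; points are the 3 replicates and bars their mean. Each RNA is near 0 at 3 h, with 0.545% to 4.26% of its mean 0 h CPM left, and stays there at 5 h.

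Functional classes were then compared, using lists of genes by role that were chosen with earlier results of these data known. Among 18 immediate early transcription factors tested, 16 were faster and 0 slower, against 16.8% and 11.2% of all genes, and the class median log2 change was -1.74. IER5, a regulator of heat shock factors, reached -4.50, while MAFF was at -0.63 and SRF (-0.33) was lost least. The class median stood at -1.68 ± 0.17 (SD, n = 3) when each replicate was taken alone on the scale of log2(CPM + 0.5) relative to all genes.

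Genes that ERK signalling induces and that feed back on it gave 15 faster and 1 slower of 18 tested, with a median of -1.70. PHLDA1, a pleckstrin homology protein, was the most abundant, with 489, 561 and 517 CPM at 0 h against 103, 136 and 82.2 CPM at 3 h (log2 change -2.22, SE 0.08). DUSP4, a nuclear ERK phosphatase, was lost less than its relative DUSP6, with 41.9% of the CPM left against 1.78%. ETV4, an ERK-responsive ETS factor, was the slower member (log2 change 0.32, -0.17 on the stable-gene scale). HES, HEY and ID factors, which repress differentiation genes, gave 7 faster of 11, with HES1, the Notch target, at -4.13. All 5 genes tested, of 6 on the C/EBP list, were faster, from DDIT3 (-2.81) to CEBPZ (-0.24), which lay near the typical mRNA. CEBPB was at -1.60.

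CLK kinases and cyclins L, which control splicing, had a median of -2.60 in the fit, -2.14 as the mean of replicate medians and -1.50 in pQ cells, with 3 faster and 1 slower of 5 tested. CLK1 was at -3.12 and CCNL1 at -2.61, while CCNL2 was slower (0.25, -0.24 on the stable-gene scale). Of the IRF2BP family, transcriptional corepressors, IRF2BPL (-2.98) and IRF2BP2 (-2.28) were faster and IRF2BP1 (-0.84, 1.98 CPM at 0 h) did not pass. BTG and TOB proteins, which bind the CCR4-NOT deadenylase, gave 4 faster of 5, with TOB2 at -2.97 and the abundant BTG1 at -1.25. Of the KLF factors 6 of 11 were faster, with KLF6 at -3.63 and KLF5 at 0.01. TGF-beta feedback genes gave 5 faster of 9, with BAMBI, a decoy receptor, at -2.65 and SMAD7 at -2.92.

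The zinc finger genes named ZNF were the widest class. Of 534 names 352 could be tested, and 219 were faster and 1 slower, with a median of -1.02. Together they held 0.660% to 0.681% of the counts at 0 h and 0.410% to 0.428% at 3 h. Abundant members were not uniformly lost. ZNF24 went from 231, 270 and 255 CPM to 128, 131 and 105 CPM (log2 change -0.97), whereas ZNF106 (0.04) and ZNF207 (-0.17) did not pass. ZNF883 was the slower member (0.69, SE 0.24, and 0.20 on the stable-gene scale).

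Other lists were split. Of 14 amino acid stress genes 9 were faster and 1 slower, with ATF4, the master factor, at -0.75, DDIT4 at -4.75 and the transporter SLC7A5 at 0.27 (-0.22 on the stable-gene scale). Of 12 NF-kB feedback genes 6 were faster and 1 slower, and of 22 p53 targets 10 were faster and 1 slower, with PLK2 at -2.73 and GDF15, the most abundant, at -0.22. BCL2 relatives gave 4 faster of 13, with MCL1 far from the rest. Their fitted median was 0.01, while the mean of the replicate medians was -0.28 ± 0.06 (SD, n = 3) so they differ in sign. Of 8 proteins that bind AU-rich elements 4 were faster and 2 slower, against 16.8% and 11.2% of all genes. ZFP36 (-2.50) and ZFP36L1 (-1.47) were among the faster. ELAVL1 (0.30) and KHSRP (0.20) were the slower members, and both were negative on the stable-gene scale (-0.19 and -0.29). Among deadenylase subunits 1 of 12 was faster, and in the MYC, MAX and MXD network MYC alone of 10, both counts being near the 16.8% of all genes. SR splicing factors (6 faster and 1 slower of 13, median -0.19), nonsense-mediated decay factors (5 of 14 faster, -0.19), snoRNA host transcripts (12 faster and 2 slower of 25, -0.27) and mitosis genes (9 of 32 faster, -0.06) lay between.

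**Figure D2:**
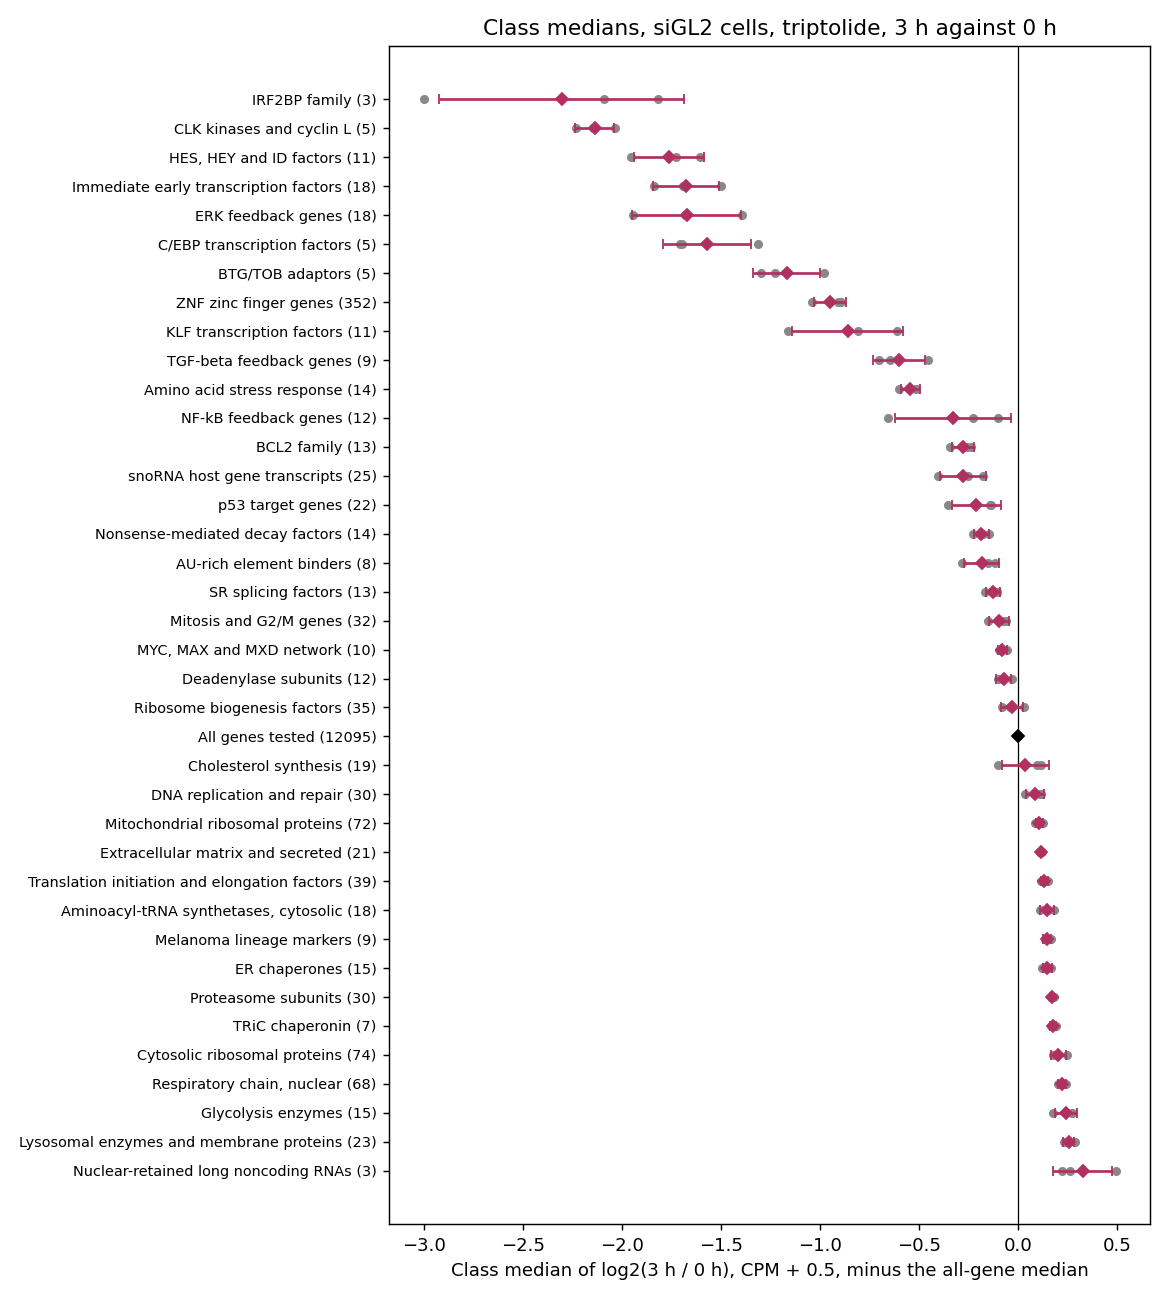
Median log2 change of each class (x axis; log2 of the 3 h over the 0 h value of CPM + 0.5, minus the median of all genes) with the number of genes tested in parentheses; grey points are the 3 replicates, diamonds their mean and bars ±1 SD. CLK kinases, IRF2BP genes and transcription factor classes stand at the left, for example immediate early factors at -1.68, and ribosomal, respiratory, glycolytic and lysosomal classes stand just right of 0, between 0.20 and 0.26, with medians of -0.29 to -0.25 on the stable-gene scale.

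Lists of housekeeping machines lay in a narrow band. Of 74 cytosolic ribosomal protein mRNAs tested 58 were slower and 0 faster, against 11.2% and 16.8% of all genes, with a median log2 change of 0.20 that became -0.29 on the stable-gene scale. Their share of the counts went from 13.2%, 12.9% and 12.8% at 0 h to 14.1%, 14.2% and 13.8% at 3 h, and the times did not overlap. RPLP1, a stalk protein, had 4704, 4753 and 4724 CPM at 0 h and 5422, 5511 and 5256 CPM at 3 h (log2 change 0.27, SE 0.04, edgeR adjusted p = 3.37e-06). Nuclear-encoded respiratory chain mRNAs gave 50 slower and 0 faster of 68, with a median of 0.22 (-0.27 on the stable-gene scale), and UQCRH, a complex III subunit, stood at 0.24 (-0.25).

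Glycolytic enzymes gave 9 slower of 15 (median 0.23), lysosomal proteins 13 of 23 (0.24), proteasome subunits 17 of 30 (0.19), with 1 faster, and the TRiC chaperonin, which folds actin and tubulin, 5 of 7 (0.16). On the stable-gene scale these medians were -0.26, -0.25, -0.30 and -0.34. ENO1, a glycolytic enzyme, stood at 0.23, GRN, the progranulin gene, at 0.37, and CD63, a tetraspanin of late endosomes, at 0.17, and these became -0.26, -0.12 and -0.32 on that scale. Mitochondrial ribosomal proteins were less uniform than cytosolic ones, with 12 slower and 4 faster of 72 and a median of 0.09 (-0.40 on the stable-gene scale). MRPL12 (0.46, -0.03 on the stable-gene scale) and MRPL44 (-0.52) marked the ends of that list. Secreted and matrix proteins gave 7 slower of 21, led by SERPINE2, a protease inhibitor with 8047, 9419 and 10070 CPM at 0 h against 9103, 10680 and 11420 CPM at 3 h (log2 change 0.26, -0.23 on the stable-gene scale). There the replicates differed more than the times, and each replicate went up.

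Elongation and initiation factors gave 11 slower and 2 faster of 39, and EIF4A2, a helicase, was the fastest at -0.80. ER chaperones gave 6 slower and 2 faster of 15, with DNAJB9, a stress-induced cochaperone, at -0.96. Ribosome biogenesis factors, unlike the ribosomal proteins, stayed near the shares of all genes (11.2% slower and 16.8% faster). Of 35 tested 4 were slower and 7 faster, with a median of -0.02. DNA replication and repair genes gave 4 slower and 0 faster of 30, with a median of 0.08. Aminoacyl-tRNA synthetases gave 2 slower and 0 faster of 18, with a median of 0.15. In both lists the slower share was near the 11.2% of all genes, while 16.8% of all genes were faster. Both medians were negative on the stable-gene scale (-0.42 and -0.34). Cholesterol synthesis genes gave 2 slower and 3 faster of 19, also near the shares of all genes, with a median of 0.04 (-0.45 on the stable-gene scale). Of the melanoma list, the transcription factors SOX10 (-0.98) and MITF (-0.77) were faster, and the calcium-binding S100A1 (0.34) and S100B (0.22) were slower (-0.16 and -0.27 on the stable-gene scale), among 2 faster and 4 slower of 9. SOX10 went from 319, 315 and 348 CPM to 141, 149 and 182 CPM.

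The largest positive values belonged to RNAs that were absent or nearly so at 0 h. LEP, the hormone leptin, had 0 counts in each 0 h library and 329, 318 and 263 counts at 3 h (34.2, 35.7 and 34.4 CPM). Against a floor of 3 counts per library, its level was at least 98.7-fold higher at 3 h. COL21A1, a minor collagen, had 0 counts at 0 h and 157, 138 and 116 at 3 h, at least 44.5-fold higher, and PBOV1 went from 0 counts to 81, 111 and 94, at least 31.4-fold higher. These values are gains in CPM from no counts at the start, not slow losses, and they stayed positive on the stable-gene scale.

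The list continued in the same way. FAM107A had 1 count over the 3 libraries at 0 h and 179 at 3 h, a CPM ratio of 175 with a counting interval of 31.01 to 6950, and ELF3, an epithelial ETS factor, had 1 and 171, a ratio of 167 (29.6 to 6641). EVADR and LMOD3 each had 2 and 203 counts, a ratio of 99.2 (27.1 to 825). DCAF4L2 had 5 and 519 counts, IL1R2, a decoy receptor of interleukin 1, 20 and 287, CCDC152 14 and 203, PUS10 19 and 190, and SOX9-AS1 18 and 159. At 5 h these RNAs were lower again than at 3 h. LEP stood at 6.33, 6.56 and 10.1 CPM, and PUS10 was back at 1.00, 0.965 and 0.701 CPM from 7.16, 8.64 and 5.75 CPM.

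**Figure D3:**
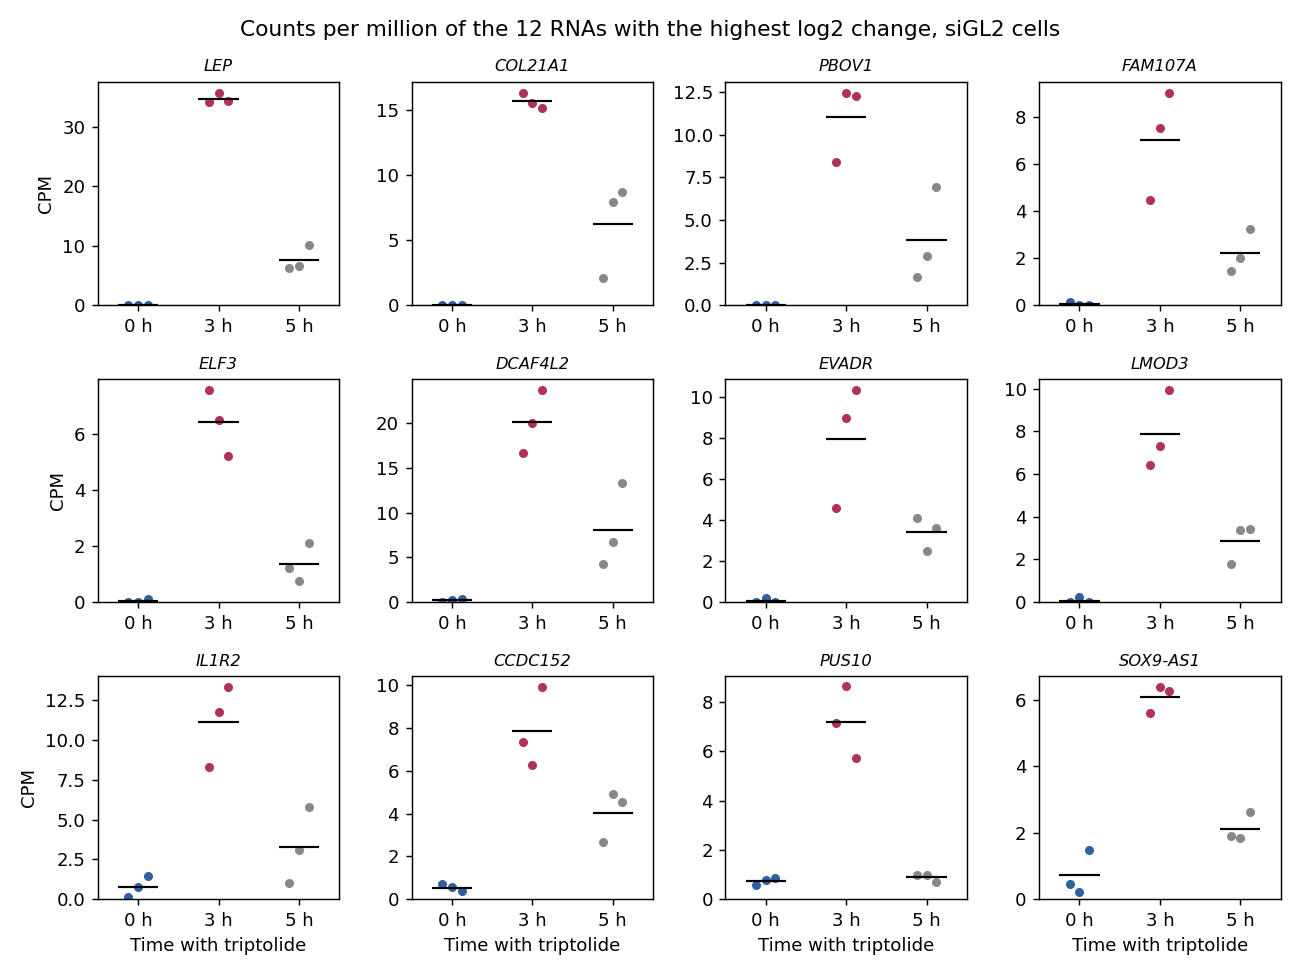
CPM (y axis, linear, from 0) of the 12 RNAs with the highest log2 change in siGL2 cells at 0, 3 and 5 h of triptolide; points are the 3 replicates and bars their mean. All 12 are at or near 0 at 0 h, for LEP 0, 0 and 0 CPM, highest at 3 h and lower at 5 h.

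The same RNAs appeared throughout the series. Each of the 12 had a higher CPM at 3 h than at 0 h in 24 of 24 pairs of libraries. A pair shares condition, arm and replicate number. The siGL2 T pairs among them were used to pick the 12, so only the other pairs lie outside that choice. LEP was lower at 5 h than at 3 h in 24 of 24 pairs, while CCDC152 was lower in 12. LEP had 149 to 429 counts in every 3 h library and at most 3 counts in any 0 h library but 1, the pQ TCHX library of replicate 3, which had 82. Of the 125 genes with a log2 change over 1 that passed the test, 94 had a mean under 10 counts at 0 h, 26 had 0 counts there, 7 had a mean of at least 50, and 33 are unnamed loci. In TCHX cells 101 of the 104 that could be measured were positive as well, and in pQ cells 100 of 106.

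Few of the slower mRNAs with a log2 change over 1 had a solid level at both times. Slower RNAs with such a level and the largest changes are named by a rule added after the values were seen. It asks for a mean of at least 50 counts at 0 h and at 3 h. LSAMP, a neural cell adhesion protein, had 27.95, 21.01 and 29.1 CPM at 0 h and 55.3, 44.9 and 62.9 CPM at 3 h (log2 change 1.14, SE 0.12, edgeR adjusted p = 1.31e-08). C3orf14 (1.28), WDPCP (1.16), CSMD2 (1.08) and RBMS3 (1.06), an RNA-binding protein gene, were close to it. Of the 12 RNAs so named, RBMS3 (1436 kb), LSAMP (1337 kb), WDPCP (708 kb), GPHN (674 kb), CSMD2 (652 kb) and GRIN2B (544 kb) span over 500 kb on the genome, as do 1.57% of all tested genes with a coding sequence. The 168 tested genes of that length had a median log2 change of 0.25, and 33 were slower and 7 faster, where 11.2% and 16.8% of all genes were. On the stable-gene scale LSAMP, at 0.65, still exceeded its 0 h level.

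Nuclear-retained long noncoding RNAs were present in the cytoplasmic fraction. NEAT1, the scaffold of paraspeckles, had 286, 297 and 467 CPM at 0 h and 501, 586 and 787 CPM at 3 h (log2 change 0.93, SE 0.06, edgeR adjusted p = 1.24e-12), and was back at 225, 273 and 352 CPM at 5 h. MALAT1 differed less (0.32, -0.17 on the stable-gene scale), and KCNQ1OT1, an imprinted antisense RNA, was lost (-2.92, SE 0.11). How much of these levels came from nuclear RNA was not tested.

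Features of the transcripts, which the test did not use, are given as a description of the fast and slow mRNAs. Values were available for 88.8% of the faster, 92.6% of the slower and 88.6% of all genes, from 1 annotated transcript each (GENCODE, GRCh38). Exon junctions were sparse in the fast mRNAs. Per kilobase of coding sequence the median was 3.40 in faster and 7.87 in slower mRNAs, with 6.49 over all, and 4.98% of faster mRNAs had no junction at all, against 0.477% of slower and 1.78% of all. Across 10 equal groups of genes by log2 change the median went from 2.44 in the fastest group to 7.65 in group 8 and was 7.06 in the slowest. The 191 tested genes without a junction had a median log2 change of -0.61. Junctions marked the zinc finger class (2.15 per kilobase) and the ERK feedback class (2.56) at the fast end, and the cytosolic ribosomal proteins (9.37) at the slow end. CLK kinases and cyclins L had 8.15 junctions per kilobase, and so were fast without being poor in junctions.

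The 3′ untranslated region had a median length of 1790 bases in faster, 728 in slower and 1431 in all mRNAs. Because longer regions hold more of any motif, shares of mRNAs and densities are given together. The nonamer TTATTTATT was in 14.2% of faster, 4.94% of slower and 10.1% of all mRNAs, at 0.0775, 0.0495 and 0.0677 per kilobase. The heptamer TATTTAT, which contains ATTTA and lies within the nonamer, was in 48.2%, 22.6% and 38.2%, at 0.360, 0.260 and 0.333 per kilobase. ATTTA itself barely differed in density, with 2.41, 2.02 and 2.34 per kilobase. The Pumilio motif TGTANATA was in 45.0%, 16.9% and 31.98%, at 0.302, 0.167 and 0.242 per kilobase. Motifs were searched on the mRNA strand only, and a match is not a tested site. By class, the nonamer was in 33.3% of the 18 immediate early factors and in none of the 11 HES, HEY and ID factors, of which 7 were also fast.

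GC at the third codon position had a median of 52.0% in faster, 65.9% in slower and 57.3% in all mRNAs. The pattern was not a straight line. It was 56.3% in the fastest group, 52.0% in group 4 and 69.1% in the slowest. Of the fast classes, immediate early factors (78.0%) and HES, HEY and ID factors (80.7%) were GC-rich and zinc finger genes (45.3%) GC-poor. These features vary together across genes, and which of them carries the difference was not tested.

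**Figure D4:**
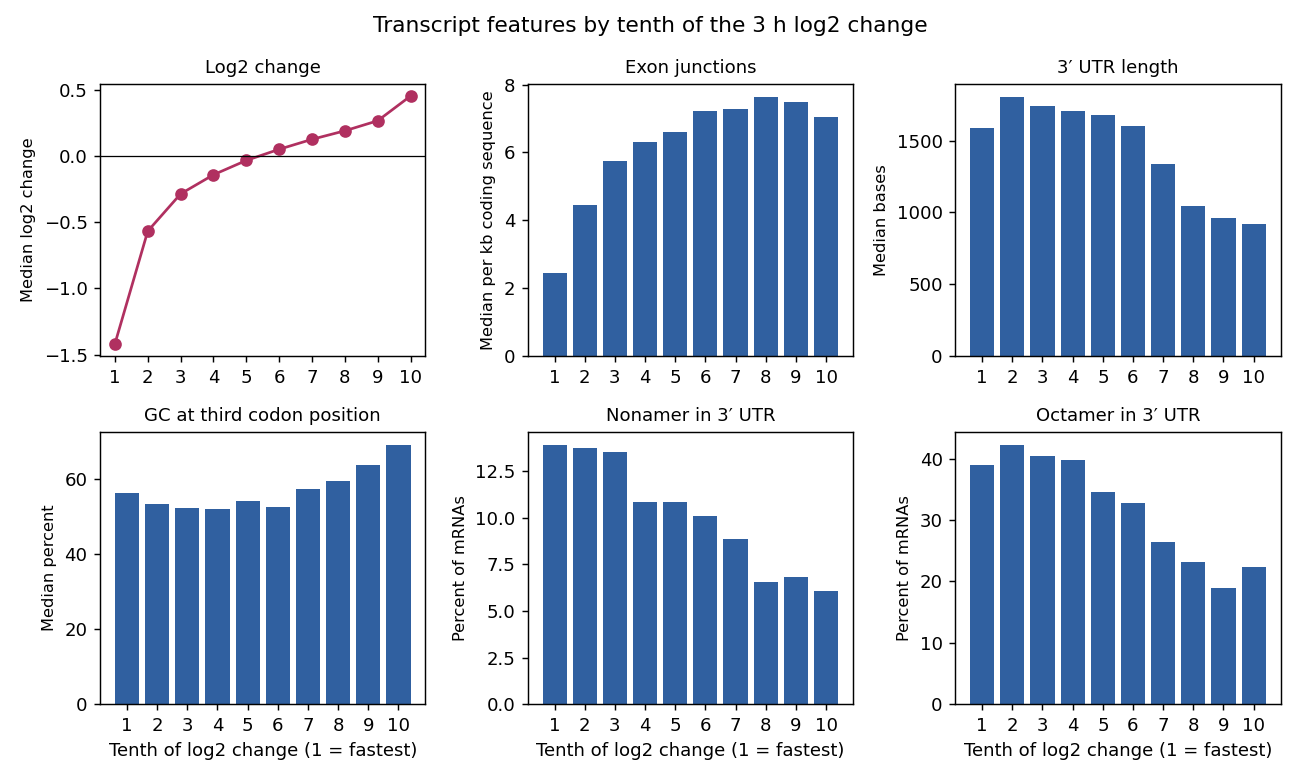
Transcript features in 10 equal groups of genes by log2 change (x axis, group 1 the fastest, 1071 or 1072 genes each); bars are medians or percentages per group, the line in the first panel is the median log2 change, and the octamer is TGTANATA. The fastest group has 2.44 exon junctions per kilobase of coding sequence against 7.06 in the slowest, and the share with the AU-rich nonamer goes from 13.9% to 6.07%.

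At 5 h some classes stood farther from 0 than at 3 h and others closer. The 5 h libraries share the 0 h libraries with the values above, so they are given side by side without a test, and the 5 h library of replicate 3 correlated less with the others (r = 0.939 and 0.946 across genes against 0.977 between replicates 1 and 2). Without that library, class medians at 5 h were -2.72 for immediate early factors, -2.81 for ERK feedback genes, -1.49 for zinc finger genes, 0.45 for cytosolic ribosomal proteins and 0.45 for the respiratory chain, each farther from 0 than at 3 h. They were -2.26 for CLK kinases and cyclins L, -0.04 for snoRNA host transcripts and -0.04 for the nuclear-retained RNAs, against -2.60, -0.27 and 0.32 at 3 h. With that library kept these 5 h medians were -2.65, -0.31 and -0.003. The first 2 classes then lay farther from 0 than at 3 h, so their direction depends on that library. DUSP4 had 33.6 and 41.3 CPM at 5 h in replicates 1 and 2, after 122 and 114 CPM at 3 h. IRF2BPL went from 12.97 and 13.2 CPM at 3 h to 1.11 and 3.38 CPM.

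Control medium cells gave an independent set of libraries. There 2335 genes were faster (19%) and 1873 slower (15.2%) of 12309. Of 2023 mRNAs that were faster in siGL2 cells and measured in pQ cells, 1987 were negative there and 1629 passed the test, and of 1339 slower ones 1292 were positive and 960 passed. Log2 changes of 11867 genes, which are not independent replicates, correlated with r = 0.867 (Pearson) and 0.696 (Spearman). Class medians were -2.18 for immediate early factors, -1.18 for ERK feedback genes, -0.99 for zinc finger genes, 0.21 for ribosomal proteins and 0.21 for the respiratory chain.

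The difference between siGL2 and pQ cells passed the test for few genes, 24 lower (0.186%) and 31 higher (0.241%) in pQ cells of 12869. Without replicate 1 the counts were 20 and 16, and without replicate 3 they were 13 and 18. CDKN1B, the cyclin-dependent kinase inhibitor p27, was at -1.26 in siGL2 and -3.93 in pQ cells, a difference of -2.65 (SE 0.28, edgeR adjusted p = 1.02e-07). HMGA2, an abundant chromatin protein mRNA, was at 0.14 in siGL2 cells (-0.35 on the stable-gene scale) and -0.50 in pQ cells. IMP3, a small nucleolar ribonucleoprotein, differed the other way, at -1.66 in siGL2 and -0.58 in pQ cells, and AMMECR1L was at -2.45 and -0.73. Transfection and medium differ together between these cells and cannot be told apart.

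Cycloheximide stops translation. The difference between the arms was tested in 12845 genes, of which 811 (6.31%) were higher and 261 (2.03%) lower with cycloheximide. Without replicate 1 these counts were 482 and 39, and without replicate 3 they were 491 and 120. DUSP6 was at -5.71 without and -1.06 with cycloheximide, a difference of 4.63 (SE 0.15, edgeR adjusted p = 3.21e-21). KLF6 (difference 2.84), HES1 (2.74) and PHLDA1 (1.86) followed by size of p.

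With cycloheximide, 12 of 18 immediate early factors, 10 of 18 ERK feedback genes and 7 of 11 HES, HEY and ID factors were higher. Of the zinc finger genes 78 of 352 were higher. Over all genes the share was 6.31%, and of the 2038 faster mRNAs 747 were higher. In the order given, the TCHX medians of these classes were -0.48, -0.45, -0.63 and -0.36. Of the 74 ribosomal protein mRNAs 17 were lower and 0 higher, and their median was 0.04 in the TCHX arm. Over all genes 2.03% were lower, and of the 1358 slower mRNAs 149 were. For other fast RNAs the difference did not pass. MIR222HG stood at -4.94 and -4.14 (difference 0.79, edgeR adjusted p = 0.421), KCNQ1OT1 at -2.92 and -2.47, and FOS at -2.76 and -1.52 (adjusted p = 0.108), the last at 69 to 85 counts in the 0 h libraries. HSPA8, a constitutive chaperone, was lower with cycloheximide, at -0.17, which did not pass, without it and -0.98 with it (difference -0.83, SE 0.12), as was B4GALT5, a galactosyltransferase, at -0.36 and -1.56. RPL22L1, a paralog of a ribosomal protein, differed by -0.56. The RNAs that appeared at 3 h did so in both arms, and LEP was at 0 counts in the 0 h libraries, so no difference between the arms is given for it.

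**Figure D5:**
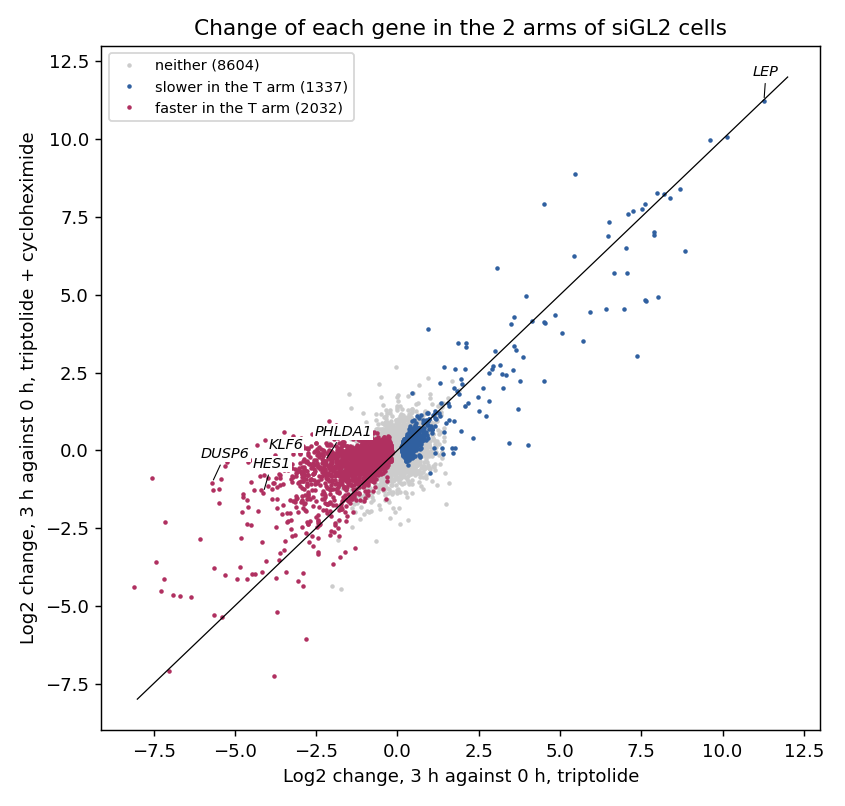
Log2 change over 3 h of each gene with triptolide alone (x axis) and with triptolide and cycloheximide (y axis) in siGL2 cells, coloured by the call in the T arm; the line marks equal change. DUSP6 lies above the line, at -5.71 and -1.06, and RNAs that appeared at 3 h, such as LEP, lie near it at the top right.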

How the data were processed

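QuantSeq libraries of cytoplasmic RNA were analysed from the deposited table of raw counts per gene. The authors trimmed reads with fastp 0.20.1, mapped them to GRCh38.p13 with HISAT2 2.2.1 and counted exon reads with HTSeq 0.13.5, per the labels and methods. No molecular identifiers were stated, so counts can include PCR copies, and counting intervals cover counting error only. The authors' methods describe ERCC spike-in RNA added before QuantSeq library preparation. The table has 44659 names and 0 spike-in names, so no spike-in scale was used, and 5084 names mark extra copies of other names. Sample columns without a match numbered 0.

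Counts were tested in R 4.3.3 with edgeR 4.0.16 (filterByExpr, TMM, quasi-likelihood F-test, replicate number as a block, Benjamini-Hochberg threshold 0.05) on the 6 libraries, and differences in decay as an interaction over 12 libraries. SEs are the log2 change over the root of F. DESeq2 1.42.0 was an alternative, and scripts were tested on simulated data. Named were the 12 fastest and 12 slowest RNAs with the same sign in all replicates and a mean of at least 50 counts (0 h or 3 h), unnamed loci and extra copies passed over, then per list the 3 most abundant and both extremes, the 4 smallest p per direction in each difference, and reference mRNAs. A few genes that this rule names are not reported here. The members, the 42 lists and the tests were chosen with earlier results of these data known. No 2 libraries of a group agreed within sampling noise (chi-square per degree of freedom 4.55 to 11.2). Gene positions and transcript features came from GENCODE release 44 (GRCh38), whose chromosomes share coordinates with GRCh38.p13.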

Additional observations from a re-analysis of the deposited data

Results flagged for a closer look

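Loss over 3 h differed between siGL2 and pQ cells, by the test of the difference itself, among others in 7 genes (log2 difference, pQ minus siGL2, edgeR quasi-likelihood test). C2orf69 (-1.80, adjusted p = 1.66e-08), CDKN1B (-2.65, 1.02e-07) and HMGA2 (-0.62, 2.18e-07) were lost more in pQ cells. IMP3 (1.09, 5.63e-08), MRFAP1L1 (0.89, 4.37e-06), CHERP (1.02, 9.59e-05) and AMMECR1L (1.74, 0.000301) were lost more in siGL2 cells.

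Between the arms of siGL2 cells, differences (TCHX minus T) with a low adjusted p were higher for DUSP6 (4.63, adjusted p = 3.21e-21), KLF6 (2.84, 1.03e-14), HES1 (2.74, 1.24e-14) and PHLDA1 (1.86, 1.24e-14). They were lower for RPL22L1 (-0.56, adjusted p = 1.55e-06), HSPA8 (-0.83, 5.41e-06) and B4GALT5 (-1.21, 1.81e-05).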

How the results depend on the processing

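The split of calls follows the scale. Against 2038 faster and 1358 slower mRNAs, the stable-gene scale gave 8196 and 113, stable genes chosen on other libraries 6761 and 120, and library totals 614 slower. A test against a 1.5-fold change gave 821 and 99. The 9 libraries with 5 h gave 880 and 137, and without the 5 h library of replicate 3 (chosen after seeing the data) 1911 and 1333. Leaving out a replicate number gave 1643 to 1719 and 910 to 1002. Same-numbered libraries deviated together with r of 0.054 to 0.13, each library correlated best with its own number (6 of 6), and no source ties the numbers to a shared batch. Without the replicate block there were 1728 faster and 788 slower mRNAs.

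For pQ against siGL2 (24 lower, 31 higher), no replicate block gave 6 and 7, no low-count filter 45 and 52, and leaving out a replicate 13 (without replicate 3) to 21 and 16 (without replicate 1) to 22. For TCHX against T (261 lower, 811 higher), lower calls numbered 44 without the replicate block, 128 on library totals and 97 on the stable-gene scale, and leaving out a replicate gave 39 to 181 and 482 to 634, both lowest without replicate 1.

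On the stable-gene scale slow classes and genes turned negative, as given beside them. Of the 12 fastest, 12 slowest and reference RNAs, signs turned in the long-lived references. On the stable-gene scale and with stable genes from other libraries, GAPDH was -0.19 and -0.10, ACTB -0.34 and -0.25, EEF1A1 -0.42 and -0.33, TUBA1B -0.44 and -0.35, and VIM -0.32 and -0.23. On library totals the log2 change of EEF1A1 was -0.0116 and the log2 change of TUBA1B was -0.0298, and leaving out a replicate gave -0.0266 (without replicate 2) to 0.146 for TUBA1B. The cause was not tested. ACTB and VIM lost their calls on library totals, without the block, and without replicate 1 (ACTB also without replicate 2), and both and GAPDH in the 1.5-fold test and with 9 libraries. Class medians taken against the median of all genes kept their sign in all 39 classes under every alternative that used all 6 libraries. For most of these alternatives that result was nearly fixed in advance. Subtracting the median of all genes cancels a change of scale, which moved no class median by more than 0.006. The 1.5-fold test leaves the log2 change as it is. Without the replicate block the largest shift was 0.083. Leaving out a replicate turned the BCL2 list (without each) and cholesterol synthesis (without replicate 3). Few counts at 3 h limit the log2 change of the fastest RNAs (EBLN2 had 0, 0 and 1).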
